A study of Mus musculus with 6 samples.

Results

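The genes described here are 8 members of the system by which cells sense sterols and take up and move cholesterol: Srebf1, Srebf2, Scap, Insig1, Insig2, Mylip, Stard4 and Npc1. They were chosen by name as the SREBP transcription factors, their sterol sensors and genes of LDL uptake and sterol transfer, and each symbol matched 1 of the 32285 Ensembl identifiers in the count table. All 8 were among the 14912 genes with enough counts to be tested. The cells were wild-type germline stem cells of the DBA-GFP line, spermatogonial stem cells propagated in culture. The control group (3 libraries) was grown in complete medium, and the pyruvate group (3 libraries) in a medium named for 8 mM pyruvate. The labels give 1 line, the same for both groups, and do not say how the media differed otherwise. Nor do they say that each library is a culture of its own, and the spread behind every p-value may be technical. The study's title concerns alanine metabolism and energy balance in these cells.

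SREBP1 and SREBP2 are made as membrane proteins of the endoplasmic reticulum, where they bind the escort protein SCAP. When membranes are rich in sterol, SCAP is held back by INSIG proteins, and when sterol is scarce the SCAP and SREBP complex travels to the Golgi, where the factor is cut free and enters the nucleus. SREBP2 is best known for switching on sterol synthesis genes, together with its own gene and Insig1, and SREBP1 for genes of fatty acid synthesis. MYLIP, also called IDOL, is a ubiquitin ligase that limits lipoprotein uptake and is induced by LXR, the nuclear receptor that responds to oxysterols, while STARD4 and NPC1 move cholesterol between membranes and out of lysosomes.

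Library totals ran from 20918312 to 26413080 counts, and 3 counts, taken as the floor, corresponded to 0.116 to 0.143 CPM. Every level is a CPM, a count scaled to a common library total, with TMM factors, which correct for differences in library composition, and each of the 8 genes had at least 296 counts in every library. The labelled cell type was checked against its markers: 7 of 7 germ cell markers were tested, with a summed level of 2044 to 2487 CPM in control and 1995 to 2130 CPM in pyruvate libraries. Undifferentiated spermatogonia markers summed to 2649 to 3058 and 2272 to 2888 CPM, and of the 11 tested, 3 lay lower in pyruvate libraries without overlap (Bcl6b, Lhx1 and Itgb1) and 1 higher (Nanos2). Differentiating spermatogonia markers summed to 1023 to 1195 and 959 to 1337 CPM, with Sohlh1 higher and Sohlh2 lower without overlap. Of all tested genes, 22.5% had groups without overlap (11.9% higher and 10.6% lower in pyruvate libraries). Fibroblast and feeder markers summed to 378 to 442 and 361 to 398 CPM. Most of that was Fn1, at 319 ± 28.3 and 284 ± 2.76 CPM, and Col1a1, at 51.4 ± 2.55 and 66.2 ± 13.7 CPM (SD, n = 3 each). Col1a1 lay higher in pyruvate libraries without overlap, and Fn1 and Pdgfra lay lower without overlap, while Dcn and Lum were under 1 CPM. Sertoli markers summed to 24.9 to 29.0 and 23.4 to 28.9 CPM, and macrophage markers to 5.11 to 7.88 and 5.68 to 7.33 CPM, with Adgre1 at 0. In edgeR 0 markers of these 6 lists passed the adjusted threshold, and their part in the results below was not tested. Control replicate 2 stood apart from the other controls, at 36.5 on a first principal component with 38.9% of the variance, against -4.12 and 0.81. Pyruvate replicate 1 stood apart from its group on the same component, at -27.2 against -1.42 and -4.64. Results are given without control replicate 2 as well, and those for Srebf2 and Insig1 also without pyruvate replicate 1.

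In pyruvate medium the transcripts of Srebf2 and Insig1 lay above every control library, while those of the other 6 genes overlapped between the groups. Insig1 was 1.45-fold and Srebf2 1.26-fold higher by the fitted values, and the fitted changes of the other 6 lay between -0.12 and 0.07 on the log2 scale. Groups did not overlap in 22.5% of all tested genes (11.9% with pyruvate higher), so 2 of 8 is a share near that of the whole table. In edgeR's quasi-likelihood test, with p-values adjusted over all genes by the Benjamini-Hochberg method, 0 of the 8 passed the threshold of 0.05, against 0.0536% of all tested genes (0.0201% higher). At an unadjusted p under 0.05, 2 of the 8 were counted, Insig1 and Srebf2, both higher, against 14.4% of all tested genes (7.94% higher). DESeq2 called 2 of the 8, both higher, against 2.19% of the genes to which it gave an adjusted p (1.22% higher), and limma-voom 0, against 0.0536% (0.0201% higher). Without pyruvate replicate 1, edgeR called 0 of the 8, against 0.00666% of all genes (0% higher), and 2 of the 8 had an unadjusted p under 0.05. Without control replicate 2, Insig1 and Srebf2 rose by edgeR's test (2 of 8, against 4.16% of all genes, with 2.33% higher and 1.82% lower). The groups then did not overlap for 3 of the 8, all higher, the third being Stard4, against 41% of all genes (20.9% higher).

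**Figure D1:**
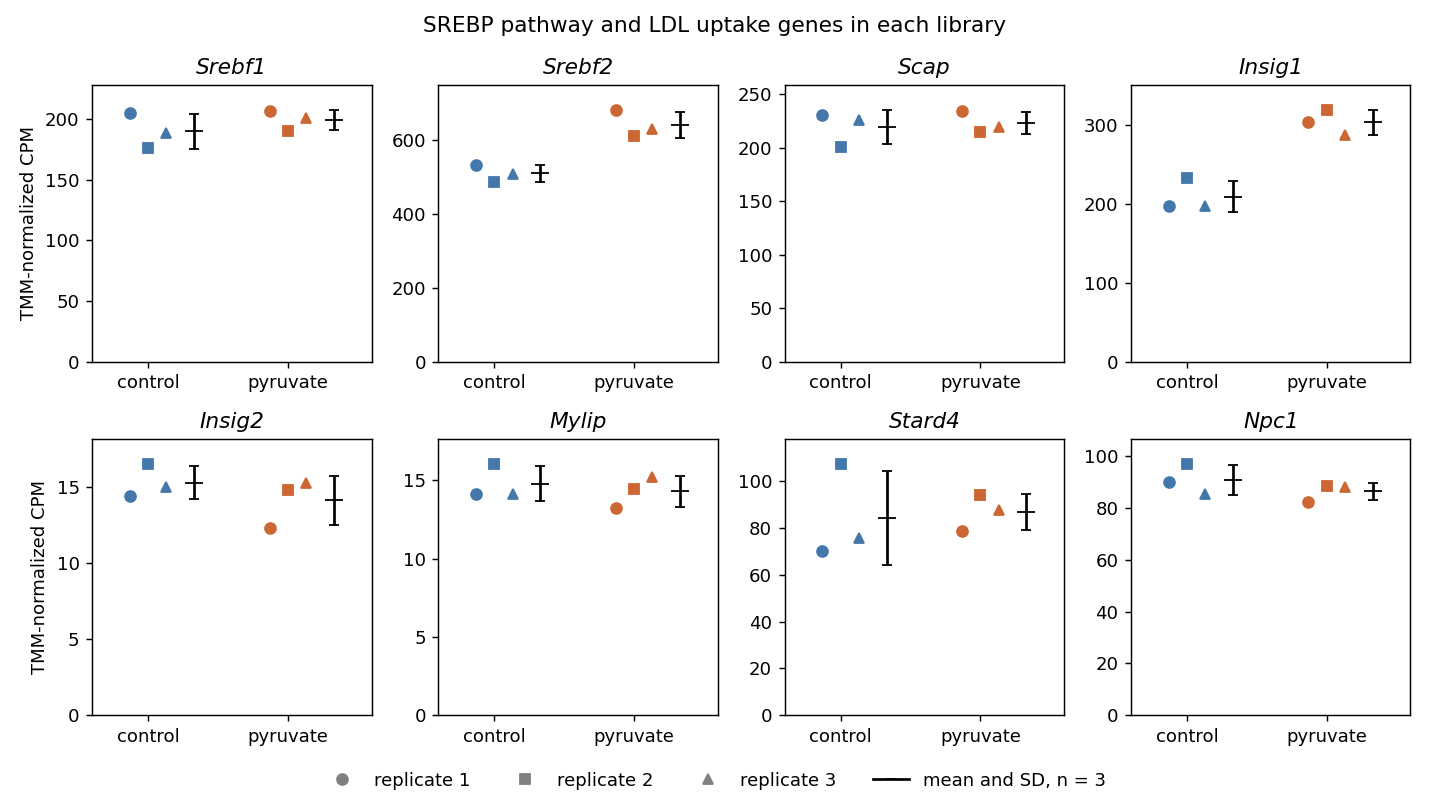
TMM-normalized CPM (vertical axes, from 0) of the 8 genes in each library, with control in blue and pyruvate in orange, marker shapes for the replicates and black bars for the mean and SD of 3 libraries. Srebf2 and Insig1 have all 3 pyruvate libraries above all 3 controls; in Stard4 the control replicate 2 library lies at 107 CPM, above the rest.

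Srebf2 encodes SREBP2, the factor that governs sterol synthesis. Its transcripts stood at 535, 487 and 510 CPM in control replicates 1, 2 and 3 and at 682, 613 and 632 CPM in pyruvate replicates 1, 2 and 3. The lowest pyruvate library was thus above the highest control, and the means were 511 ± 23.6 and 643 ± 35.8 CPM (SD, n = 3 each). The log2 fold change was 0.33 (SE 0.075, 95% interval 0.16 to 0.50, adjusted p = 0.134 in edgeR). Without control replicate 2, which held the lowest value, it was 0.30 (SE 0.064), and Srebf2 rose with adjusted p = 0.0326 in edgeR. Leaving out pyruvate replicate 1 instead, which held the highest value, gave 0.29 (SE 0.081, adjusted p = 0.372 in edgeR). The gene (ENSMUSG00000022463) lies on chromosome 15 at 82147181 to 82205379 (plus strand, GRCm38), and its exons overlap those of no other annotated gene.

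Srebf1 encodes SREBP1, in 2 main forms from different starts that gene counts cannot separate. Its transcripts stood at 205, 177 and 189 CPM in the controls and at 206, 190 and 201 CPM in the pyruvate libraries. The groups overlapped, with means of 190 ± 14.5 and 199 ± 8.15 CPM (SD, n = 3 each). The log2 fold change was 0.07 (SE 0.081, 95% interval -0.12 to 0.25, adjusted p = 0.738 in edgeR). That interval rests on the spread of these libraries only, which may be technical. The gene (ENSMUSG00000020538, chromosome 11, 60199089 to 60222581, minus strand) shares 66 exon bases with Mir6922 on the same strand and 109 with Rai1 on the opposite strand, and its counts are uncertain to that extent.

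Scap encodes the escort and sterol sensor of both factors. It stood at 231, 201 and 226 CPM in the controls and at 234, 215 and 219 CPM in the pyruvate libraries, so the groups overlapped. Means were 219 ± 15.9 and 223 ± 10.2 CPM (SD, n = 3 each), with a log2 fold change of 0.02 (SE 0.081, 95% interval -0.16 to 0.21, adjusted p = 0.912 in edgeR). The fitted value turned to -0.03 without control replicate 2. The gene (ENSMUSG00000032485, chromosome 9, 110333288 to 110384950, plus strand) shares 985 exon bases with 5830462I19Rik on the opposite strand, so its counts are uncertain.

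Insig1 encodes the INSIG form known as a target of SREBP, so that its protein closes a feedback loop. Its transcripts stood at 198, 233 and 198 CPM in control replicates 1, 2 and 3 and at 304, 319 and 288 CPM in pyruvate replicates 1, 2 and 3. The pyruvate libraries all lay above the controls, and control replicate 2 was the nearest to them. Means were 210 ± 19.9 and 304 ± 15.6 CPM (SD, n = 3 each), a log2 fold change of 0.53 (SE 0.088, 95% interval 0.33 to 0.74, adjusted p = 0.0840 in edgeR). Insig1 was the gene with the 44th lowest p of the 14912 tested. Without control replicate 2 the log2 fold change was 0.62 (SE 0.062), and Insig1 rose with adjusted p = 0.00180 in edgeR. Leaving out pyruvate replicate 1 instead gave 0.54 (SE 0.11, adjusted p = 0.283 in edgeR). The gene (ENSMUSG00000045294) lies on chromosome 5 at 28071363 to 28078662 (plus strand), and its exons overlap no other annotated gene.

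Insig2 encodes the second INSIG protein, which also retains SCAP and is not known as a strong SREBP target. It was far less abundant, at 14.3, 16.5 and 14.9 CPM in the controls and 12.3, 14.8 and 15.2 CPM in the pyruvate libraries. The groups overlapped, and the lowest value was that of pyruvate replicate 1. Means were 15.3 ± 1.11 and 14.1 ± 1.59 CPM (SD, n = 3 each), with a log2 fold change of -0.12 (SE 0.12, 95% interval -0.39 to 0.16, adjusted p = 0.696 in edgeR). The gene (ENSMUSG00000003721) lies on chromosome 1 at 121304353 to 121332589 (minus strand).

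**Figure D2:**
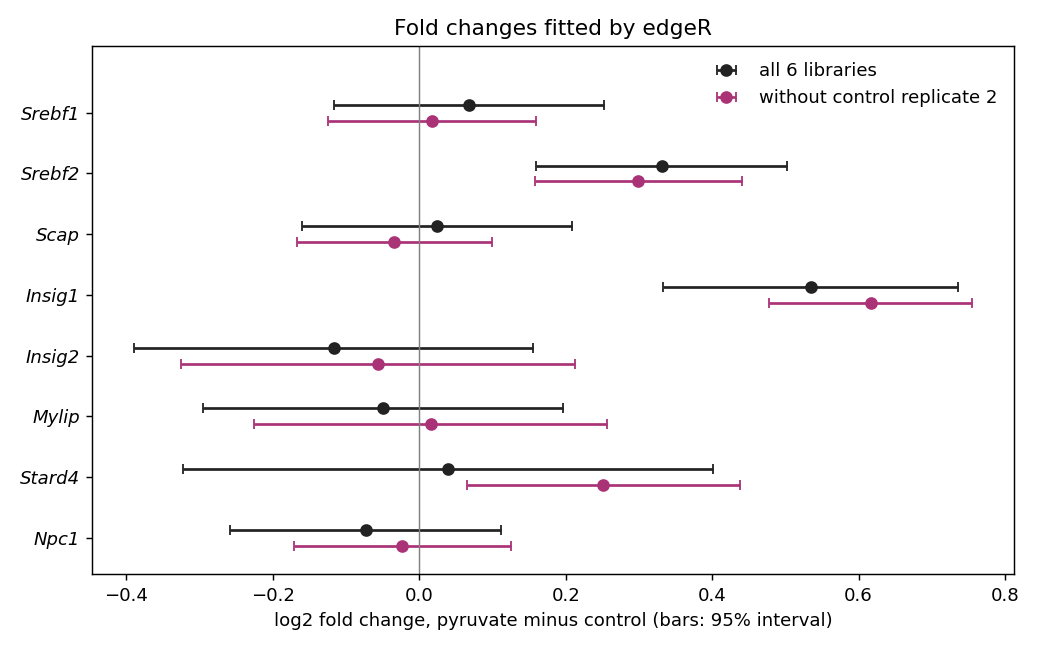
Log2 fold changes (horizontal axis, pyruvate minus control) of the 8 genes as fitted by edgeR, with 95% intervals as bars, over all 6 libraries (black) and without control replicate 2 (purple). The intervals of Srebf2 and Insig1 lie above 0 in both fits, that of Stard4 only without control replicate 2, and those of the other 5 genes include 0 in both.

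SREBP and its partners can bind in the bases before the start of a gene. The promoters of the pair whose groups did not overlap, picked by that result, are shown beside that of Insig2. The sequences are from RefSeq on GRCm38.p6, 5′ to 3′ on the gene's strand, and end before the first annotated transcript start. Capitals mark matches on either strand to 3 short motifs, CCAAT (bound by NF-Y), GGGCGG (bound by Sp1) and CACGTG (an E-box). In Srebf2 they also mark TCACNCCA, which is the first 8 letters of TCACNCCAC, a form of the sterol regulatory element, and was added to the search after the sequences were seen. The Srebf2 promoter is chr15:82147019-82147180, that of Insig1 is chr5:28071162-28071362 and that of Insig2, at the first of its 3 listed starts, is chr1:121332590-121332839 on the minus strand.
Srebf2: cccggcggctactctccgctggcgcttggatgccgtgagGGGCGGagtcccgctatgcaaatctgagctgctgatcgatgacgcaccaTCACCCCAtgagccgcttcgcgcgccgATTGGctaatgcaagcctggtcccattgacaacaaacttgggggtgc
Insig1: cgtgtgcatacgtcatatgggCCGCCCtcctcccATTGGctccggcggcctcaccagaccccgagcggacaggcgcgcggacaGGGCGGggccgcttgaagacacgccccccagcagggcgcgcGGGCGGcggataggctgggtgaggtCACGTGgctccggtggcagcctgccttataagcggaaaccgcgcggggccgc
Insig2: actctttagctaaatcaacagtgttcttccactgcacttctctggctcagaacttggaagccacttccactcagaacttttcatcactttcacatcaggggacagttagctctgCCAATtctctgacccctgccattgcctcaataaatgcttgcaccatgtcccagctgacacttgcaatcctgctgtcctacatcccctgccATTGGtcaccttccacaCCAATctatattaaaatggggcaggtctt

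Promoters of 6 of the 8 genes matched the table (Srebf1, Srebf2, Scap, Insig1, Insig2 and Mylip). The search used the 250 bases before each start listed by RefSeq. Of these, the last 88 in Srebf2 and 49 in Insig1 lie past the first annotated transcript start and are not printed. Windows at the later listed starts of Srebf1 and Insig2 lie wholly past the first annotated start of their gene. The window at the second listed start of Scap lies partly past it. In these windows the 9-letter TCACNCCAC was found in 0 of the 6 genes, against 1.05% of the 32851 promoters of that length. The 8-letter TCACNCCA was found in Srebf2 alone, within the printed stretch, against 3.67% of all promoters. CACGTG was found in Insig1, within the printed stretch, and at the second listed start of Scap, against 6.02% of all promoters. The Scap match lies past that gene's first annotated transcript start. CCAAT was found in 5 of the 6 genes, all but Scap, against 33.8% of all promoters, and GGGCGG in 6 of the 6, against 32.7%. Srebf1, Insig2 and Scap had more than 1 listed start each, which gives them more chances of a match than the single promoters behind those shares. At the first listed start GGGCGG was found only in Srebf2, Insig1 and Mylip. In Srebf1, Insig2 and Scap it was found only at later listed starts. The CCAAT matches include the first listed start of each of those 5 genes. A match describes the letters and is not evidence of binding.

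Ratios within a library do not depend on how libraries are scaled to each other, and the 2 SREBP genes were compared in that way. The Srebf2 to Srebf1 ratio, in CPM per kb of exon, was 2.04, 2.17 and 2.12 in the controls and 2.59, 2.52 and 2.46 in the pyruvate libraries. Control replicate 2 lay among the controls in this ratio, and the groups did not overlap (2.11 ± 0.063 and 2.53 ± 0.064, SD, n = 3 each). The Srebf2 to Scap ratio was likewise separated, at 2.42 ± 0.088 in control and 2.99 ± 0.031 in pyruvate libraries. The Insig1 to Insig2 ratio was 15.5, 15.8 and 14.9 in the controls and 27.8, 24.3 and 21.2 in the pyruvate libraries, so in both groups Insig1 made up most of the INSIG transcripts. The Insig1 to Scap ratio was 2.07, 2.79 and 2.11 in the controls and 3.12, 3.58 and 3.16 in the pyruvate libraries. The Srebf2 to Insig1 and Stard4 to Npc1 ratios overlapped between the groups. The 4 separated ratios each gave p = 0.1 in a two-sided exact permutation test (adjusted 0.15 over 6 ratios), the smallest that 3 libraries against 3 allow. All 4 have Srebf2 or Insig1 as the numerator, whose levels already lay apart. They therefore restate those 2 differences and add no separate support. The share of all gene pairs whose ratios separate was not computed.

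**Figure D3:**
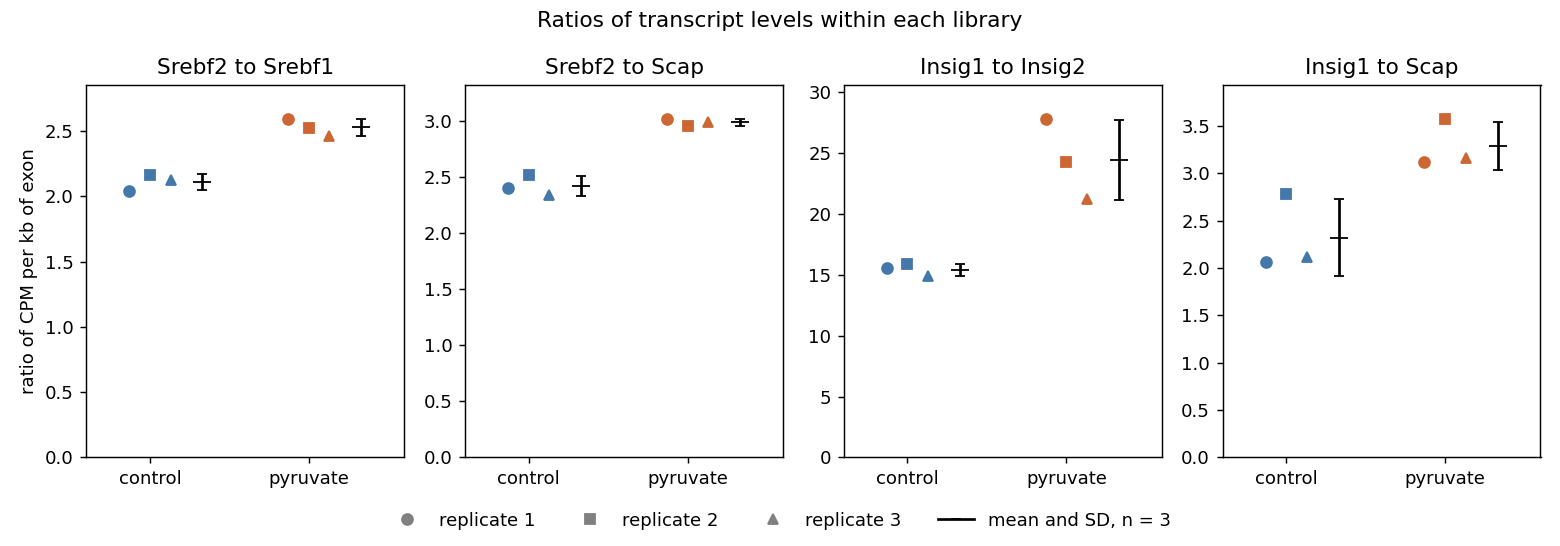
Ratios of CPM per kb of exon within each library (vertical axes, from 0), with control in blue and pyruvate in orange, marker shapes for the replicates and black bars for the mean and SD of 3 libraries. In all 4 panels the pyruvate libraries lie above the controls, and control replicate 2 lies near the other controls except in the ratio of Insig1 to Scap.

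Levels of different genes can be set side by side per kb of exon. Over the 6 libraries the order was Insig1 (mean 83.0 CPM per kb, 64.1 to 103), Srebf2 (80.3, 67.9 to 94.98), Srebf1 (34.6, 31.3 to 36.6), Scap (29.7, 27.0 to 31.5), Stard4 (15.3, 12.5 to 19.2), Npc1 (7.82, 7.28 to 8.57), Mylip (4.50, 4.09 to 4.97) and Insig2 (4.23, 3.53 to 4.75). The ranges of Insig1 and Srebf2, of Srebf1 and Scap, and of Mylip and Insig2 overlapped, and those of the other neighbours did not. With the length of the longest transcript in place of all exons, a choice made after seeing the data, each of those 3 pairs changed places. In the controls Srebf2 stood at 71.1 ± 3.28 and Insig1 at 67.8 ± 6.44 CPM per kb, and in pyruvate medium at 89.4 ± 4.98 and 98.2 ± 5.05 (SD, n = 3 each).

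Mylip, which limits lipoprotein uptake, was a rare transcript. It stood at 14.1, 16.1 and 14.1 CPM in the controls and at 13.2, 14.5 and 15.2 CPM in the pyruvate libraries, which overlapped. Means were 14.8 ± 1.12 and 14.3 ± 0.99 CPM (SD, n = 3 each), with a log2 fold change of -0.05 (SE 0.11, 95% interval -0.29 to 0.20, adjusted p = 0.864 in edgeR). The gene (ENSMUSG00000038175) lies on chromosome 13 at 45389742 to 45412022 (plus strand).

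Stard4 encodes a cytosolic sterol carrier that is itself a known SREBP2 target. It stood at 70.1, 107 and 75.5 CPM in control replicates 1, 2 and 3 and at 78.7, 93.8 and 87.3 CPM in the pyruvate libraries. Control replicate 2 alone lay above every pyruvate library, and the other controls lay below all of them. Means were 84.3 ± 20.1 and 86.6 ± 7.60 CPM (SD, n = 3 each), with a log2 fold change of 0.04 (SE 0.16, 95% interval -0.32 to 0.40, adjusted p = 0.931 in edgeR). Without control replicate 2 it was 0.25 (SE 0.084, 95% interval 0.06 to 0.44, adjusted p = 0.121 in edgeR). Leaving out control replicate 1 instead gave -0.08. The gene (ENSMUSG00000024378) lies on chromosome 18 at 33199355 to 33213862 (minus strand).

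Npc1 encodes the lysosomal membrane protein that exports cholesterol delivered by LDL. It stood at 89.9, 97.0 and 85.4 CPM in the controls and at 82.4, 88.5 and 88.1 CPM in the pyruvate libraries. The groups overlapped, with means of 90.8 ± 5.86 and 86.3 ± 3.38 CPM (SD, n = 3 each). The log2 fold change was -0.07 (SE 0.081, 95% interval -0.26 to 0.11, adjusted p = 0.720 in edgeR). The gene (ENSMUSG00000024413, chromosome 18, 12189692 to 12236400, minus strand) shares 511 exon bases with Rmc1 and 90 with Gm15956 on the opposite strand, so its counts are uncertain.

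Control replicate 2 differed from the other controls in both directions over the 8 genes. The cause, and any part of GC content in it, was not tested. Srebf1, Srebf2 and Scap, whose longest transcripts hold 58.4%, 57.9% and 59.1% G and C, were each lowest of 6 libraries there. Insig2, Mylip, Stard4 and Npc1, with 43.9% to 49.6%, were each highest of 6 there, and Insig1, with 48.2%, was the highest control. Against the mean of control replicates 1 and 3, control replicate 2 differed by -0.18 (Scap) to 0.56 (Stard4) on the log2 CPM scale, while those other controls differed from each other by at most 0.12. With each library's trend in GC content and length removed and all libraries kept, the log2 fold change of Srebf2 was 0.27 (SE 0.042, adjusted p = 0.0192 in edgeR), that of Insig1 was 0.54 (SE 0.078, adjusted p = 0.0149) and that of Stard4 was 0.12 (SE 0.082, adjusted p = 0.440). With the trend removed and all libraries kept, edgeR called 2 of the 8 genes, against 538 of all 14912 tested. With the trend removed and control replicate 2 left out, a combination added after seeing the data, Stard4 rose as well (0.22, SE 0.058, adjusted p = 0.0403 in edgeR). That fit called 3 of the 8 genes, against 1286 of all 15042 tested.

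The genes that the SREBP system acts on were described from lists, by their counts and medians beside those of all tested genes. Of all tested genes 48.1% lay above 0, with a median of -0.01 on the log2 scale. At an unadjusted p under 0.05 in edgeR, 7.94% of them were higher and 6.44% lower. EdgeR's adjusted test called 0.0536% with all libraries, and 2.33% higher and 1.82% lower without control replicate 2. When any other library was left out instead, 0 genes of the 6 lists were called. All 20 tested sterol synthesis enzymes lay above 0, with a median of 0.36. By edgeR's test 1 of them rose, Mvk, and 0 fell. When control replicate 2 was left out, 11 were called higher and 0 lower. At an unadjusted p under 0.05, 14 were higher and 0 lower. Mvk, which encodes mevalonate kinase, stood at 12.4, 8.88 and 12.1 CPM in the controls and at 25.6, 25.3 and 24.2 CPM in the pyruvate libraries (log2 1.17, SE 0.14, adjusted p = 0.0353 in edgeR). Leaving out 1 library at a time, the call was kept only without control replicate 2, with adjusted p from 0.0922 to 0.309 without each of the other 5. Msmo1, a sterol demethylase, stood at 40.0 ± 2.67 and 62.5 ± 1.52 CPM (SD, n = 3 each; log2 0.64, adjusted p = 0.0604 in edgeR), and Lss, lanosterol synthase, at 98.9 ± 1.43 and 143 ± 7.24 CPM (log2 0.54, adjusted p = 0.0613 in edgeR, with exons that overlap a gene on the opposite strand). Both rose without control replicate 2 (adjusted p = 0.00220 and 0.00431 in edgeR).

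Hmgcs1 encodes an early enzyme of the sterol pathway. Hmgcs1 stood at 228, 314 and 233 CPM in the controls and at 292, 346 and 326 CPM in the pyruvate libraries (log2 0.32, SE 0.13, adjusted p = 0.327 in edgeR), and rose without control replicate 2 (log2 0.48, adjusted p = 0.0110). Control replicate 2 was the one control that did not lie below every pyruvate library. Exons of Hmgcs1 overlap a gene on the opposite strand.

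Of 24 other genes of lipoprotein uptake and sterol transfer 23 were tested, 13 above 0 and 10 below, with a median of 0.05, and 0 passed edgeR's test in either direction, against 2 higher and 0 lower without control replicate 2. At an unadjusted p under 0.05, 4 were higher and 0 lower. Stard5, a relative of Stard4, stood at 12.3 ± 0.78 and 15.1 ± 0.19 CPM (SD, n = 3 each; log2 0.30, adjusted p = 0.234), and its exons overlap genes on both strands.

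**Figure D4:**
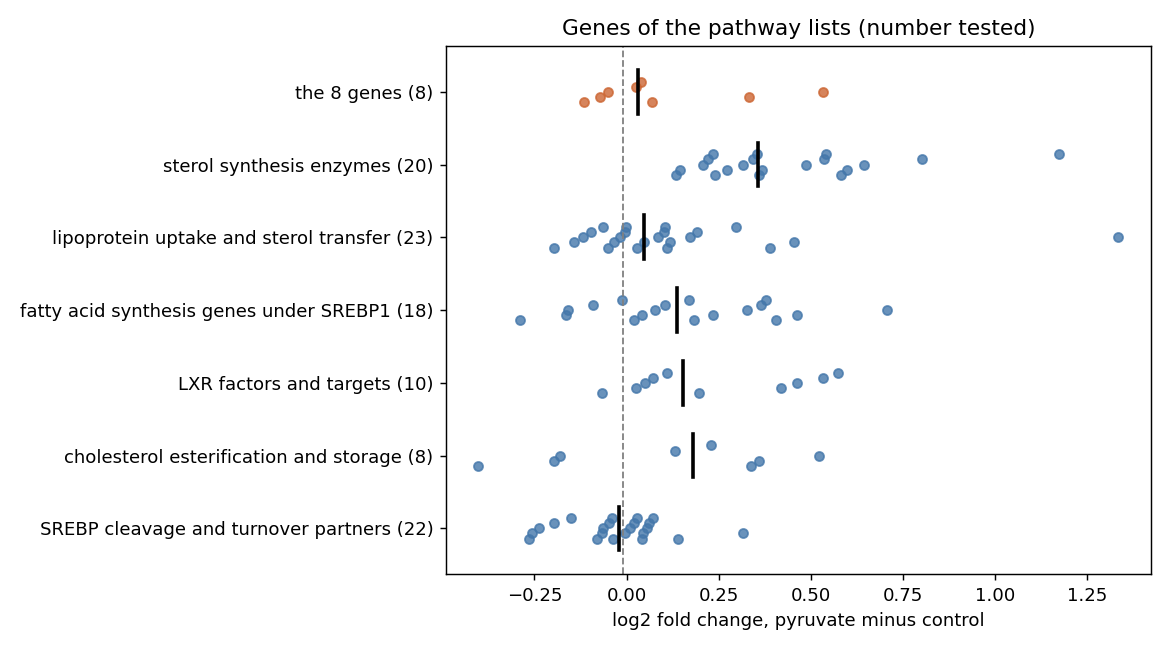
Log2 fold changes (horizontal axis, pyruvate minus control) of single genes as points, with the 8 genes described here in orange and the genes of 6 lists in blue; black ticks mark each list's median and the dashed line the median of all tested genes. Sterol synthesis enzymes all lie above 0 with a median of 0.36, while the 8 genes have a median of 0.03 with Srebf2 and Insig1 to the right of the rest.

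Fatty acid synthesis genes under SREBP1 had 13 of 18 tested genes above 0 and a median of 0.14, with 0 called by edgeR in either direction, against 6 higher and 0 lower without control replicate 2. At an unadjusted p under 0.05, 7 were higher and 1 lower. Lpin1, a phosphatidate phosphatase, stood at 96.1 ± 8.20 and 133 ± 3.01 CPM (SD, n = 3 each; log2 0.46, adjusted p = 0.0995 in edgeR). It rose once control replicate 2 was left out (adjusted p = 0.00320 in edgeR). Mid1ip1, an activator of acetyl-CoA carboxylase, stood at 5.85 ± 0.28 and 9.54 ± 0.92 CPM (log2 0.71, adjusted p = 0.0937 in edgeR), with exons that overlap a gene on the opposite strand. Aacs, which makes acetoacetyl-CoA in the cytosol, stood at 70.4 ± 4.55 and 93.2 ± 3.55 CPM (log2 0.41, adjusted p = 0.116 in edgeR). Without control replicate 2 Mid1ip1 and Aacs rose (adjusted p = 0.0289 and 0.0216 in edgeR).

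LXR factors and targets had 9 of 10 tested genes above 0 with a median of 0.15, and 0 were called by edgeR, with 1 higher and 0 lower at an unadjusted p under 0.05. Mylip, described above as induced by LXR, is not in this list, and its log2 fold change was -0.05. Abca1, a cholesterol exporter, stood at 32.1, 77.2 and 35.8 CPM in the controls and at 70.2, 78.0 and 68.2 CPM in the pyruvate libraries. Control replicate 2 lay within the pyruvate range, far above the other controls. The log2 fold change was 0.58 (SE 0.30, adjusted p = 0.424 in edgeR). Abca1 rose once control replicate 2 was left out (log2 1.09, adjusted p = 0.000665 in edgeR). Abcg1, another exporter, stood at 41.2 ± 1.61 and 55.1 ± 13.5 CPM (SD, n = 3 each; log2 0.42, adjusted p = 0.289 in edgeR), and Nr1h3, which encodes LXR alpha, at 0.77 ± 0.19 and 1.11 ± 0.074 CPM (log2 0.53, adjusted p = 0.399), with exons that overlap a gene on the same strand.

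The list drawn up for partners in the cleavage and turnover of SREBP had 10 of 22 tested genes above 0 and 12 below. Its median was -0.02, and 0 were called by edgeR with all libraries or without control replicate 2. Whether each listed gene acts on SREBP itself was not tested. At an unadjusted p under 0.05, 1 was higher and 1 lower. Usp20, a deubiquitinase, stood at 42.4 ± 2.94 and 52.8 ± 5.41 CPM (SD, n = 3 each; log2 0.32, adjusted p = 0.230 in edgeR). Pgrmc1, a haem-binding membrane protein, stood at 42.6 ± 1.63 and 36.2 ± 0.73 CPM (log2 -0.24, adjusted p = 0.240). Sec24c, a coat protein of vesicles that leave the endoplasmic reticulum, was at 214 ± 11.5 and 235 ± 4.11 CPM (log2 0.14, adjusted p = 0.411, with exons that overlap a gene on the opposite strand).

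Genes of cholesterol esterification and storage had 5 of 8 tested genes above 0 with a median of 0.18, and 0 were called by edgeR with all libraries or without control replicate 2. At an unadjusted p under 0.05, 2 were higher and 1 lower. Lipe, a neutral lipase, stood at 26.9 ± 3.11 and 34.0 ± 3.19 CPM (SD, n = 3 each; log2 0.34, adjusted p = 0.249 in edgeR), with exons that overlap a gene on the opposite strand. Nceh1, a cholesteryl ester hydrolase, stood at 23.8 ± 5.17 and 18.0 ± 1.51 CPM (log2 -0.40, adjusted p = 0.295). Cyp46a1, a cholesterol hydroxylase, was at 3.26 ± 0.77 and 4.67 ± 0.88 CPM (log2 0.52, adjusted p = 0.335).

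Genes whose log2 CPM over the 6 libraries most resembled that of Srebf2 or Insig1 were taken from the 10853 other tested genes with a mean of at least 5 CPM. For Srebf2 they were Begain, Fuca1 and Cdc25c, with Pearson's r of 0.9959, 0.9955 and 0.9954. For Insig1 they were Slc20a2, Tbc1d8 and Cdkn1b, with r of 0.9941, 0.9938 and 0.9925. These are descriptions over 6 libraries that share their group structure, and the genes were picked as the highest of all those compared.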

How the data were processed

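The 6 libraries were made with a stranded mRNA kit, per the labels' protocols. The table of counts was used as the authors deposited it, with whole numbers per gene and no normalization. Per the submitters' processing notes, the tools were STAR 2.7.11a, cutadapt 4.6, bcl2fastq 2.20 and HTSeq 2.0.5, with mm10 as the build. Which annotation and strand setting the counting used is not stated there. The values of 3 further columns, which no sample here matches, were left out throughout. The fits were made in R 4.3.3 with edgeR 4.0.16 (filterByExpr with a minimum count of 10, TMM factors, robust quasi-likelihood test, no covariate). Benjamini-Hochberg adjustment covered all 14912 genes. Standard errors are the log2 fold change over the square root of F, with none given for genes whose p edgeR raised to its Poisson bound. Log2 CPM used a prior count of 2. Library pairs within a group differed by more than sampling noise (chi-square per gene 3.11 to 47.0). Positions, exon lengths and GC content are from GENCODE M21 (GRCm38). Depth intervals and floors cover counting error only.

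Alternatives were other scalings and filters, DESeq2 1.42.0, limma-voom (limma 3.58.1), a replicate block, removal of GC and length trends by splines with 5 degrees of freedom, and leaving out each library. The fit was tested on simulated data. It called 44 of 97 genes set to change 1.5-fold and 82 of 98 set to change 2-fold. Of 14548 genes simulated without a change it called 8. The members, the 6 lists and the rules were chosen with earlier results of these data known. Named genes are the 8 members, up to 3 of lowest p in each list, Hmgcs1, and the 3 most correlated genes of each member with an unadjusted p under 0.05. Some genes that this rule names are not reported here.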

Additional observations from a re-analysis of the deposited data

How the results depend on the processing

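Insig1, Srebf2, Insig2 and Npc1 kept the sign of their fitted change in all 17 alternatives, Srebf1 in 16, Stard4 and Mylip in 14 and Scap in 12. None of the genes that turned sign passed the test with all libraries. With trends removed Scap was at -0.0435, both with and without the replicate block. With trends removed and control replicate 2 left out, Scap, Mylip and Srebf1 were at -0.0525, 0.0226 and -4e-04. Leaving out each library in turn, Scap ranged from -0.0343 (without control replicate 2) to 0.064, Mylip from -0.0942 to 0.016 (without control replicate 2) and Stard4 from -0.0754 (without control replicate 1) to 0.2516 (without control replicate 2). Insig1 passed edgeR's or DESeq2's test in 7 of the 17 (log2 0.50 to 0.64, adjusted p 5.31e-05 to 0.380) and Srebf2 in 6 (log2 0.26 to 0.37, adjusted p 0.00198 to 0.409). The count of members called was 0 with all libraries, 1 with no filter, 2 with DESeq2, with trends removed, with the replicate block or with both, 3 with trends removed and control replicate 2 left out, and 0 to 2 when each library was left out in turn, with 2 only without control replicate 2. The count of list genes called was 1, against 2 with library totals or upper-quartile scaling, 8 with no filter, 0 with the 5 CPM filter, 12 with DESeq2, 13 with the replicate block, 20 with trends removed, 29 with both, 28 with trends removed and control replicate 2 left out, and 0 to 20 when each library was left out. The count over all genes was 8 (3 higher, 5 lower), against 14 with library totals (8 higher, 6 lower), 15 with upper-quartile scaling (8 higher, 7 lower), 83 with no filter (52 higher, 31 lower), 286 with DESeq2, 265 with the replicate block, 538 with trends removed, 1497 with both, 1286 with trends removed and control replicate 2 left out, and 0 to 625 when each library was left out, highest without control replicate 2. The median over the 8 genes moved from 0.03 to -0.015 with trends removed. The 8-letter motif was in 1 promoter of 250 bases and 0 of 150. The cause of these differences was not tested.

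Same-numbered libraries deviated from their group means with correlations of 0.31, 0.31 and -0.07, and the labels do not say that numbers pair them. With the replicate block Insig1 and Srebf2 passed edgeR's test (adjusted p = 0.0142 and 0.0439), and the other 6 genes did not. The block fit called 265 of all 14912 tested genes, against 8 in the fit without it.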
